A study of Mus musculus with 16 samples.

Results

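Collagen genes were described here by the open chromatin at their loci in C2C12 iMyoD1, a polyclonal line of mouse C2C12 myoblasts that carries a doxycycline-inducible Halo-tagged MyoD1 transgene beside the endogenous Myod1 gene. Members were all protein-coding genes of GENCODE M21 whose symbol reads Col, a number, a and a number, which gave 44 of 21951 genes. A peak was assigned to a gene when it overlapped the gene body or the 20 kb on either side (build mm10). The assay was ATAC-seq, in which a transposase inserts sequencing adapters into accessible DNA. Cells were kept in growth medium (GM) or serum-starved for 24 h in differentiation medium (DM), each with vehicle (no dox) or with doxycycline for 24 h (+dox), which gave 4 groups of 4 libraries labelled as biological replicates. All groups, controls included, carried the transgene. Seeding was at 75000 cells for GM and at 300000 for DM, so density and medium cannot be told apart. Replicate 1 of both DM groups was left out, so 14 libraries remained. The methods of the study name both as quality outliers.

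Collagens are secreted or membrane-bound trimers of alpha chains. Fibrillar chains form the fibers of connective tissue, type IV chains form the sheet of basement membranes, and the FACIT chains bind to the surface of fibers. In skeletal muscle, fibrillar and type VI collagens fill the interstitial matrix, whereas types IV, XV and XVIII belong to the basement membrane around each muscle fiber. Myoblasts and, above all, fibroblasts of muscle produce them.

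The deposited peak lists of the 14 libraries held up to 58587 peaks, with an estimated background coverage of 0.339 to 1.13 fragments per base. Lists of unequal length are not comparable peak by peak, so each was cut to the length of the shortest (GM no dox replicate 1) by keeping the peaks of highest deposited −log10 p, and overlapping peaks were merged into 26213 regions. These equal lists are meant throughout unless full lists are named. Myod1, which marks myoblasts, had a peak at a start in 14 of 14 lists, and the transgene shares its coding sequence. Of the other myoblast markers, peaks within 1 kb of a start were found in 8 lists for Cdh2, 3 for Cdh15, 1 for Ncam1 and 0 for Des and Myf5, and in the full lists in 14, 10, 10, 13 and 6. Ptprc, Epcam and Alb, markers of blood, epithelial and liver cells, had none in any full list, and the endothelial marker Pecam1 had one in 8. ATAC-seq of a culture cannot separate fewer cells with an open region from less opening per cell.

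In all, 132 of the 26213 regions lay in the windows of collagen genes, and 411 of 80290 when full lists were merged. Each region is named here by its gene and the distance of its summit from the 5′ end of that gene. Most collagen regions were not at promoters. Of the 132, 79 lay inside a gene away from its starts, 22 in the upstream flank, 16 in the downstream flank and 15 within 1 kb of an annotated start of the collagen gene itself. By element, 80 summits were intronic. Within 1 kb of any gene's start lay 23.5% of collagen regions against 36.3% of all regions. Among the collagen regions, 16 lay within 1 kb of a start of a gene that is not a collagen gene. They count as collagen regions by position only. Of the 132, 3 lay in the windows of more than 1 collagen gene and are named by 1 of these genes. A peak in all 14 lists was found for 21 collagen regions (15.9%, against 23.1% of all regions), and 24 collagen regions (18.2%, against 16.8%) had a peak in 1 list only.

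The sequences shown are the 201 bases centered on the summit of 8 regions, chosen after their values were seen because the results turn on them. The first set holds the 2 collagen regions with the strongest median rank, both intronic and present in all 14 lists. All sequences are read from GRCm38, the assembly behind mm10, on its plus strand. Capitals mark CAGCTG (the E-box that MyoD1 prefers), TGANTCA (the AP-1 element, with N for any base) and GGAATG or its complement CATTCC (the TEAD element). The AP-1 consensus has C or G at N, so the TGAATCA of Col2a1 +12.4 kb is a looser match. The last letters of the E-box can also be the first of the AP-1 element.
Col6a3 +9.0 kb (chr1:90834895-90835095): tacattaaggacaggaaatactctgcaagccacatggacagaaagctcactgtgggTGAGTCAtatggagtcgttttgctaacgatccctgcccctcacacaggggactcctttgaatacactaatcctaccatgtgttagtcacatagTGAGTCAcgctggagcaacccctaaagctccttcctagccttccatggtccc
Col4a2 +69.8 kb (chr8:11382483-11382683): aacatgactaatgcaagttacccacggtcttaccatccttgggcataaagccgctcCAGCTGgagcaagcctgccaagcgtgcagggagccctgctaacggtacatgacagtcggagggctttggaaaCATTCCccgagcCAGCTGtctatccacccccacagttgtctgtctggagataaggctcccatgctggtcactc
The second set holds regions whose rank or presence differed between GM and DM, located near or inside Col1a1, Col2a1, Col12a1 and Col28a1.
Col1a1 +22.0 kb (chr11:94958097-94958297): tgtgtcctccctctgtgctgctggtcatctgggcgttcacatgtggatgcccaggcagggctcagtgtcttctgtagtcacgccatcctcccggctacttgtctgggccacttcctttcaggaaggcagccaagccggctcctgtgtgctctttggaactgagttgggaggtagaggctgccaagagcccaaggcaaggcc
Col2a1 +12.4 kb (chr15:97992170-97992370): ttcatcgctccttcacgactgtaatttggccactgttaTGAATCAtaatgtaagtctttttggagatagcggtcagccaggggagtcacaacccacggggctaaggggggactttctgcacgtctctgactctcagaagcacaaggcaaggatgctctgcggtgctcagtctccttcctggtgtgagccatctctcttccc
Col12a1 +70.1 kb (chr9:79648674-79648874): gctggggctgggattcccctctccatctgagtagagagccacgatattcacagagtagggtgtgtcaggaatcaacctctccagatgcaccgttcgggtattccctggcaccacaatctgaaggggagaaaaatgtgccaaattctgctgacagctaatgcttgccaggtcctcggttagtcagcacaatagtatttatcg
Col28a1 +20.3 kb (chr6:8172219-8172419): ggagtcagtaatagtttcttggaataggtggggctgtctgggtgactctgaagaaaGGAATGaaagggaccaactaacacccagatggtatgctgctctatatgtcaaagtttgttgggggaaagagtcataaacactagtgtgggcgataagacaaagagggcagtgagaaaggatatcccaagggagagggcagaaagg
The third set holds a pair of regions described for dox in DM.
Col4a4 +157.5 kb (chr1:82429203-82429403): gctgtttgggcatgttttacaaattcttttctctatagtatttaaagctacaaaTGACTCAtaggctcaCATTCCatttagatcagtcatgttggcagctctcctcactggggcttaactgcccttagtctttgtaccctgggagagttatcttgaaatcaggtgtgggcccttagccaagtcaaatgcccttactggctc
Col15a1 +85.8 kb (chr4:47293900-47294100): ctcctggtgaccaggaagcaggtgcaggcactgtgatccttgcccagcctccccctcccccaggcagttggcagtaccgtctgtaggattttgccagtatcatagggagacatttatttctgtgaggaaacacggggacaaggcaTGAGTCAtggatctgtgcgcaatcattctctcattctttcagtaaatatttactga
No capitals in the Col1a1 and Col12a1 sequences means only that these letters are not in these windows.

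Over the regions more than 1 kb from any start, TGANTCA was found within 100 bases of the summit in 55 of 101 collagen regions (54.5%, against 48.3% of 16709 regions in all). CAGCTG was found in 29 (28.7%, against 22.2%) and GGAATG, on either strand, also in 29 (28.7%, against 21.4%). CCAAT, a promoter element searched on both strands, was found in 19 (18.8%, against 22.6%), and TATAAA in 6 (5.94%, against 6.97%). These shares are descriptions and were not tested.

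Peaks were found at 34 of the 44 collagen genes (77.3%, against 66.5% of all protein-coding genes) and in all 14 lists at 20 of them (45.5%, against 39.1%). Collagen windows are long, with a median of 154 kb against 57.4 kb for all genes. Per megabase of window they held 9.05 peaks, against 11.8 over all genes, and in full lists 27.8 against 27.2. The 10 genes without a peak in any equal list were Col9a1, Col9a2, Col10a1, Col11a1, Col14a1, Col4a5, Col6a4, Col6a5, Col25a1 and Col26a1. Cartilage chains were found on both sides: Col9a1, Col9a2, Col10a1 and Col11a1 are among these 10 genes, whereas Col2a1 had peaks in 13 lists and Col9a3, Col11a2 and Col27a1 in all 14. All 44 genes had a peak in at least 1 full list.

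The basement membrane gene Col4a2 and the multiplexin Col18a1, the precursor of endostatin, carried most regions. Col4a2 (13 regions) had 3 to 11 peaks per library and Col18a1 (15 regions) had 3 to 8. The 6 type IV genes together held 22 regions, with peaks at 5 of them. Windows also take in neighboring promoters: in full lists Col4a3 +138.0 kb, with a peak in all 14, lay within 1 kb of a start of Mff. Of the 11 fibrillar genes 10 had peaks, in 42 regions, and Col5a3 and Col5a1, which regulate fiber assembly, had 2 to 6 each. Among the 9 FACIT genes Col22a1, a chain of muscle-tendon junctions, had 3 to 5. The 6 type VI genes held 12 regions, and Col6a2 had 0 to 3 peaks. In the small classes Col8a1 had 1 to 3 peaks, Col7a1 1 to 3, Col23a1 1 to 2 and Col28a1 0 to 2.

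**Figure D1:**
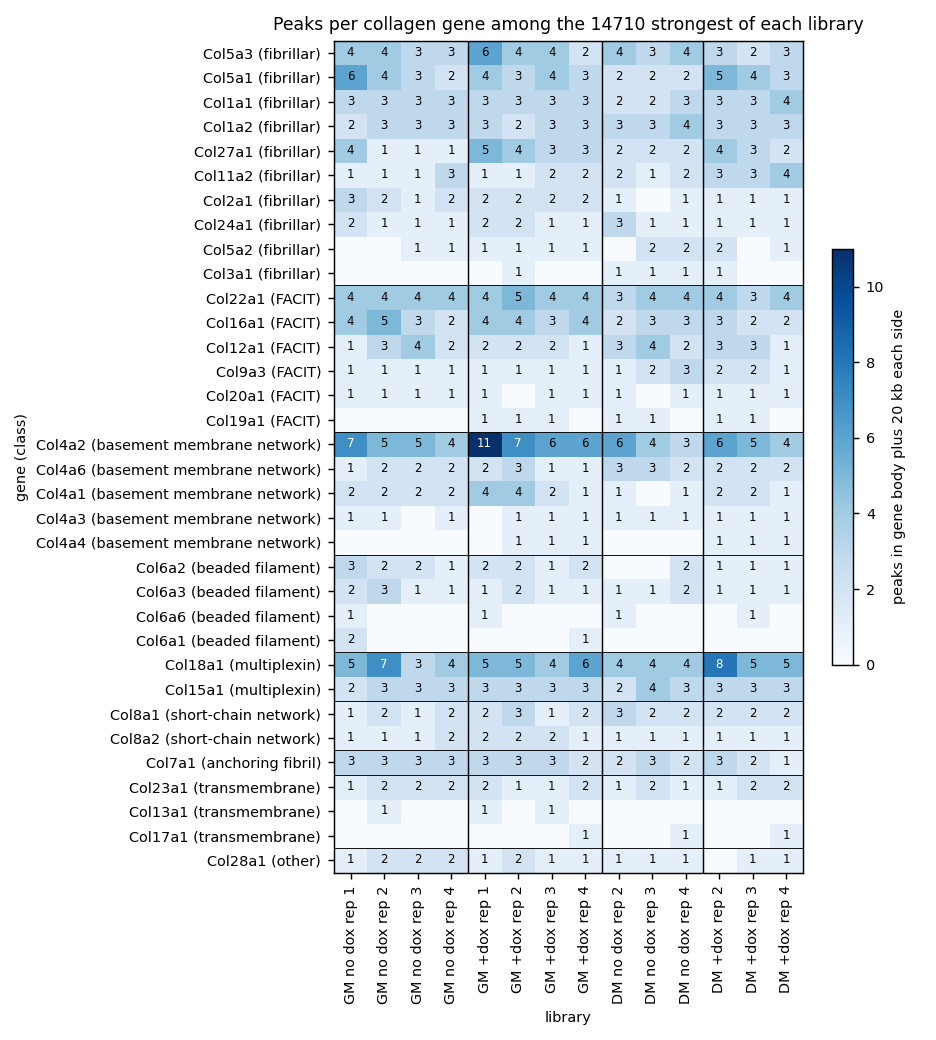
Number of peaks (cell text and color) per collagen gene with a peak (34 rows, grouped by class) in the equal list of each of the 14 libraries (columns, grouped by condition), in the gene body plus 20 kb each side; empty cells are 0. Col4a2 reached 11 peaks in GM +dox replicate 1, while Col6a1 had peaks in 2 libraries.

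The strongest collagen regions by median rank, which were picked for that rank (rank 1 being the peak with the highest −log10 p of a list) were intronic. Col6a3 +9.0 kb (chr1:90834735-90835224), in the gene of the long type VI chain, ranked 565 to 5317 over the 14 lists with a median of 1833. Col4a2 +69.8 kb (chr8:11381955-11383181) ranked 195 to 7904 with a median of 2384. At Col1a1, the main chain of type I collagen, the strong regions lay outside the gene: −7.2 kb and −19.6 kb upstream had peaks in 13 of 14 lists, and +22.0 kb, beyond the 3′ end, in all 14.

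Most collagen genes had no region at the 5′ end in the equal lists. A region within 1 kb of the 5′ end was found there for 10 of 44 genes, and in full lists for 25. The share over all protein-coding genes was not counted, so this is not shown to be particular to collagen genes. The most regular region at a 5′ end was Col12a1 +0.1 kb, in 13 of 14 lists, followed by Col6a2 +0.2 kb in 12 and Col18a1 +0.0 kb in 11. Col5a2 +0.2 kb was found in 9, Col5a1 −0.2 kb in 7 and Col1a1 +1.0 kb in 1. Col1a2 +26.3 kb (chr6:4530838-4531328), in a coding exon within 1 kb of an internal annotated start, was found in all 14 lists, with ranks of 751 to 10622. No start of Col3a1, Col4a1, Col4a2, Col6a1, Col6a3, Col8a1, Col15a1 or Col25a1 had a region of that strength, although single peaks lay near a start of Col4a1 in 2 lists. In full lists Col3a1 +0.1 kb was found in 9 lists, Col4a1 +0.0 kb, which also covers the divergent start of Col4a2, in 8, Col6a1 +0.1 kb in 10, Col8a1 −0.9 kb in 10, Col15a1 +95.4 kb in 9, Col6a3 +0.0 kb in 3 and none at Col25a1.

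Full lists were longer with dox. They held 46863 ± 9083 peaks in GM (SD, n = 4) and 49026 ± 2582 in DM (n = 3), against 31702 ± 15675 (n = 4) and 29490 ± 9624 (n = 3) without dox. Col1a2 +0.5 kb (chr6:4505274-4505675), at the 5′ end of the gene of the second type I chain, had no peak even in the long DM +dox lists. In GM it had a peak in 4 of 4 full lists without dox and in 3 of 4 with dox, whereas DM gave 0 of 3 in either arm. Its ranks in GM no dox were 13179, 27052, 22110 and 34712, with fold enrichments of 4.46, 6.87, 3.88 and 4.89, so it was a weak peak. In the full lists its rank strength was lower by 1.36 in DM no dox than in GM no dox (SE 0.34, limma adjusted p = 0.0610) and by 0.53 in DM +dox than in GM +dox (SE 0.34, adjusted p = 0.527), neither past 0.05.

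**Figure D2:**
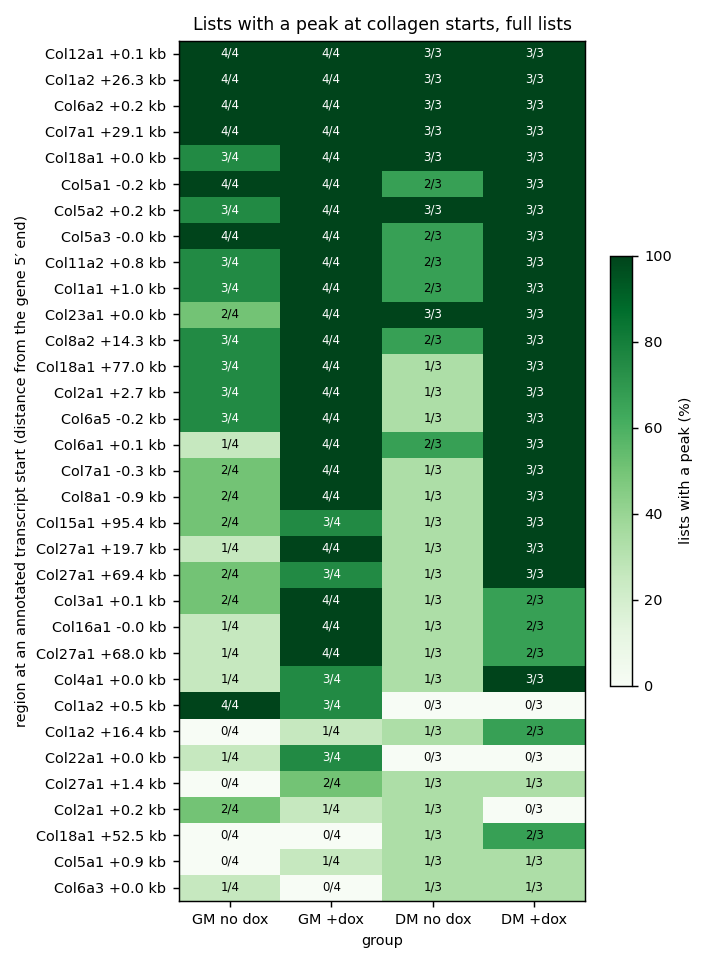
Lists with a peak (cell text, number of lists; color, percent of the group's lists) at regions within 1 kb of an annotated transcript start of a collagen gene, in the full lists, for regions with a peak in at least 3 of 14 lists. Col1a2 +0.5 kb had a peak in 4/4 and 3/4 GM lists and in 0/3 and 0/3 DM lists.

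Per library, collagen windows held 63.0 ± 6.38 peaks (SD, n = 4) without dox and 69.8 ± 7.63 (n = 4) with dox in GM, and 58.0 ± 2.00 (n = 3) and 63.7 ± 6.66 (n = 3) in DM. The groups overlapped except for GM +dox (63 to 79) and DM no dox (56 to 60), which no single factor separates. The mean difference was 6.75 peaks with dox in GM, 5.67 with dox in DM, −5 with differentiation without dox and −6.08 with differentiation under dox. Within replicate numbers 3 and 4 they were 6, 2, 0.5 and −3.5, and within numbers 1 and 2 they were 7.5, 13, −10.5 and −5, where each DM group is a single library. With still shorter equal lists the difference with dox in DM was −2.33, and ranked by fold enrichment it was 0. In full lists the means were 154 ± 84.8, 240 ± 41.8, 138 ± 58.0 and 236 ± 21.4, in step with the length of the lists, and the collagen share of the full list ranged only from 0.426% to 0.531%.

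**Figure D3:**
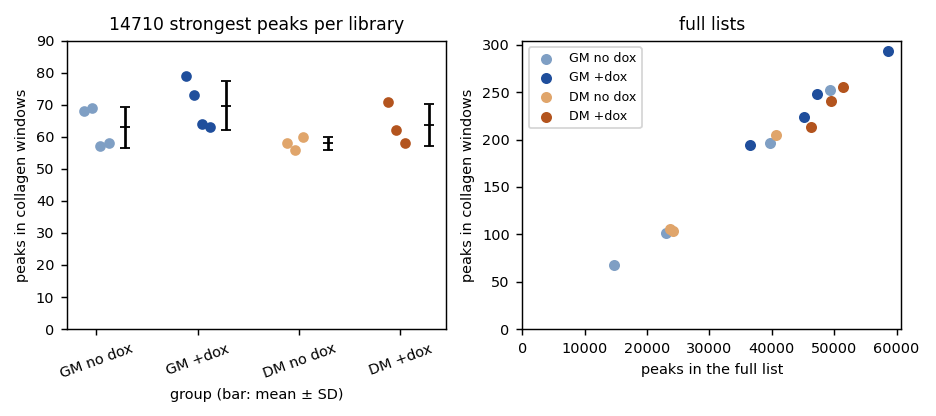
Left, peaks in collagen windows in the equal list of each library by group (points, libraries; bars, mean ± SD). Right, the same count in full lists against the number of peaks in the list, where libraries of all groups lie along 1 band from 68 peaks in the shortest list to 293 in the longest.

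To compare regions, ranks were turned into rank strength, the log2 of list length plus 1 over rank, with 0 for no peak, so that a difference of 1 stands for a 2-fold change in rank. In fits on full lists the length of the longest list, 58587 peaks, was used for every library. A rank is relative to the other peaks of its list and does not measure absolute accessibility. Differences were fitted with limma over all 19695 regions with a peak in at least 3 lists, of which 91 were collagen regions, and p-values were adjusted over all 19695. This fit had 4 group means and no term for replicate numbers. In it, no collagen region passed an adjusted p of 0.05 in any of the 4 comparisons. None passed in the test of whether dox effects differed between media (smallest adjusted p = 0.9999 there, with 2 of 91 at an unadjusted p under 0.05). Fits with a replicate block are named where they are used.

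Dox in GM, the comparison of MyoD1 induction in proliferating cells, gave 0 called collagen regions, as it did over all regions (0%). At an unadjusted p under 0.05 there were 7 of 91, or 7.69% against 6.11% of all regions, and the smallest adjusted p was 0.744. The median difference was 0.08 over collagen regions and 0.00 over all. Col22a1 +171.0 kb, an intronic region, ranked 721, 1031, 1462 and 2781 in GM no dox and 3553, 1852, 3637 and 9479 in GM +dox, a difference of −1.56 (SE 0.61, adjusted p = 0.744). Col1a2 +26.3 kb ranked 751, 2353, 6449 and 4000 without dox and 5809, 3784, 7836 and 10148 with it (−1.32, SE 0.57, adjusted p = 0.790). Ranks of the 2 groups overlapped for both regions, but in each of the 4 same-numbered pairs the rank was weaker with dox. With the number as a replicate block neither passed the threshold (adjusted p = 0.217 for Col22a1 and 0.305 for Col1a2). No collagen region was all-or-none, that is, with a peak in every list of 1 group and none of the other, against 0.163% of all regions higher and 0.124% lower with dox. In the full GM lists 4 of 358 were all-or-none toward dox (1.12%, against 0.446% of all regions) and 0 toward no dox (0%): Col5a1 +45.7 kb, Col26a1 +10.6 kb and, in Col27a1, +7.7 kb and +34.2 kb. The full list of GM no dox replicate 3 ended at 23078 peaks, and that of replicate 1 was shorter. With dox, Col5a1 +45.7 kb ranked 27349 to 43018, Col26a1 +10.6 kb 24809 to 35176 and Col27a1 +34.2 kb 27616 to 38333. Peaks of such ranks had no place in either, so absence there cannot be told apart from list length. Col27a1 +7.7 kb ranked 18671 to 27913, all past the end of the replicate 1 list. The lists of replicates 2 and 4 (39721 and 49300 peaks) also lacked all 4.

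Dox in DM, the same question in differentiating cells, also gave 0 called collagen regions, against 0.142% of all regions. Unadjusted p was under 0.05 for 4 of 91 (4.40%, against 5.91%), and the median difference was 0.00, as over all regions. Col15a1 +85.8 kb (chr4:47293611-47294563), intronic in the gene of a basement membrane collagen of muscle and with an AP-1 element in the sequence shown, ranked 4780, 9116 and 9181 in DM no dox and 850, 3165 and 2154 in DM +dox. The groups did not overlap, and the difference was 2.04 (SE 0.65, adjusted p = 0.415). This region was picked for a low p. How often groups separate over all regions was not counted, here or for the regions named below. With the number as a replicate block the SE was 0.46 and the limma adjusted p was 0.0810, not past the threshold. Col4a4 +157.5 kb (chr1:82428901-82429563), in the flank beyond the 3′ end of a type IV gene, had no peak among the strongest in DM no dox and ranked 9273, 9276 and 12549 in DM +dox (0.52, SE 0.13, adjusted p = 0.170). In GM it was absent without dox and ranked 13250, 14545 and 13296 in 3 of 4 lists with dox. Without DM +dox replicate 4, where 26 of 19290 regions in all passed, the DM difference was 0.67 and passed the threshold (adjusted p = 0.0490). With the replicate block over all 14 libraries it was 0.52 and did not pass (adjusted p = 0.133).

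All-or-none regions with dox in DM were 2 higher of 99 (2.02%, against 0.824%) and 1 lower (1.01%, against 0.787%). The higher ones were Col4a4 +157.5 kb and the intronic Col4a2 +36.0 kb, which ranked 12749, 14197 and 13556 in DM +dox. The lower one was the intronic Col4a6 +181.1 kb, which ranked 9746, 8344 and 13686 in DM no dox. All 3 were type IV loci with low ranks, and in full lists they had peaks in 3, 1 and 3 of the 3 DM no dox lists and in 3 of the 3 DM +dox lists. In the longer DM +dox full lists, 12 of 314 collagen regions were all-or-none toward dox (3.82%, against 5.37% of all regions) and 0 toward no dox (0.0142% of all). The fit on full lists called 1 of 271 collagen regions in this comparison (0.369%, against 0.672% of all regions), Col10a1 −7.5 kb (0.88, SE 0.19, adjusted p = 0.0314). This region ranked 24599, 32849 and 39849 in DM +dox. The full lists of DM no dox replicates 2 and 3 ended at 23690 and 24181 peaks, so peaks of such ranks had no place in them. The call therefore cannot be told apart from the difference in list length.

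Differentiation without dox, the comparison of serum withdrawal on endogenous MyoD1 alone, gave the smallest adjusted p of any collagen region. Col1a1 +22.0 kb (chr11:94957960-94958720) ranked 2682, 2730, 1915 and 2818 in GM no dox and 11327, 9585 and 11028 in DM no dox. The groups did not overlap, and the difference was −2.08 (SE 0.48, adjusted p = 0.0677), just short of the threshold. With the number as a replicate block it was −2.02 and passed (limma adjusted p = 0.0401), but numbers were not taken as pairs in this comparison. That block fit called 1 of 91 collagen regions here, and 239 of 19695 regions in all. In the dox arm the same region ranked 3173, 3202, 11016 and 3406 in GM +dox and 12782, 9719 and 6838 in DM +dox (−1.10, SE 0.48, adjusted p = 0.382), where GM +dox replicate 3 lay among the DM libraries. The other Col1a1 regions did not share this pattern: −7.2 kb ranked 8435, 4995, 7838 and 3554 in GM no dox and 6250 and 5286 in DM no dox, with no peak in 1 list.

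Over all collagen regions 0 were called in this comparison, against 0.376% of all regions, and 13 of 91 had an unadjusted p under 0.05 (14.3%, against 12.7%). The median difference was −0.08, against 0.01 over all regions, with 53 regions below 0 and 33 above. A pair of intronic Col27a1 regions, in the gene of a fibrillar chain of cartilage, went opposite ways. Col27a1 +97.7 kb ranked 1214, 1799, 5027 and 4436 in GM no dox and 11335, 13748 and 12150 in DM no dox (−2.23, SE 0.78, adjusted p = 0.231). Col27a1 +102.5 kb had a peak in 1 of 4 GM no dox lists, at rank 10694, and ranked 4508, 4445 and 8006 in DM no dox (1.32, SE 0.36, adjusted p = 0.121). At starts, Col6a2 +0.2 kb ranked 3426, 7465, 7970 and 5703 in GM no dox and had 1 peak in DM no dox, at rank 8225 (−1.05, SE 0.46, adjusted p = 0.356). Without DM no dox replicate 2, where 150 of 19355 regions in all passed, Col3a1 +44.6 kb passed the threshold (0.85, adjusted p = 0.0371). With all 14 libraries its difference was 0.56 (adjusted p = 0.231). This region lies in the downstream flanks of both the type III gene and Col5a2.

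All-or-none regions in this comparison were 1 higher of 113 (0.885%, against 0.984%) and 3 lower (2.65%, against 1.04%). Col12a1 +70.1 kb (chr9:79648547-79648951), over a coding exon of a FACIT gene, had no peak in GM no dox and ranked 4674, 10593 and 14300 in DM no dox. Col2a1 +12.4 kb (chr15:97991861-97992598), intronic in the gene of cartilage collagen, ranked 3739, 5424, 12121 and 12166 in GM no dox and had no peak in DM no dox (−0.99, SE 0.55, adjusted p = 0.469). Col16a1 −10.6 kb ranked 7401, 9883, 13953 and 7700 in GM no dox and had none in DM no dox. Col28a1 +20.3 kb (chr6:8172091-8172659), intronic, ranked 3843, 5551, 10033 and 10205 in GM no dox and had none in DM no dox. In the full lists Col2a1 +12.4 kb and Col16a1 −10.6 kb had peaks in 3 of 3 DM no dox lists and Col12a1 +70.1 kb in 3 of 4 GM no dox lists, so the peaks missing from the equal lists were there at lower rank. Col28a1 +20.3 kb had a peak in all 8 GM full lists, and in DM in 0 of 3 without dox and 1 of 3 with dox. Fitted on full lists, its difference of −3.10 (SE 0.58, adjusted p = 0.0116) passed the threshold. It was the 1 call among 271 collagen regions there (0.369%, against 0.769% of all regions). In the full lists of the arm without dox, 3 of 288 collagen regions were all-or-none toward GM (1.04%, against 0.205%) and 0 toward DM (0.205% of all). The others were Col1a2 +0.5 kb and Col22a1 +184.0 kb, and the latter had peaks in 2 of 3 DM +dox lists. In GM no dox, Col1a2 +0.5 kb ranked 13179, 27052, 22110 and 34712, and Col22a1 +184.0 kb ranked 8062, 17343, 20652 and 39046. The full lists of DM no dox replicates 2 and 3 ended at 23690 and 24181 peaks, so the weakest of these ranks had no place in them.

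**Figure D4:**
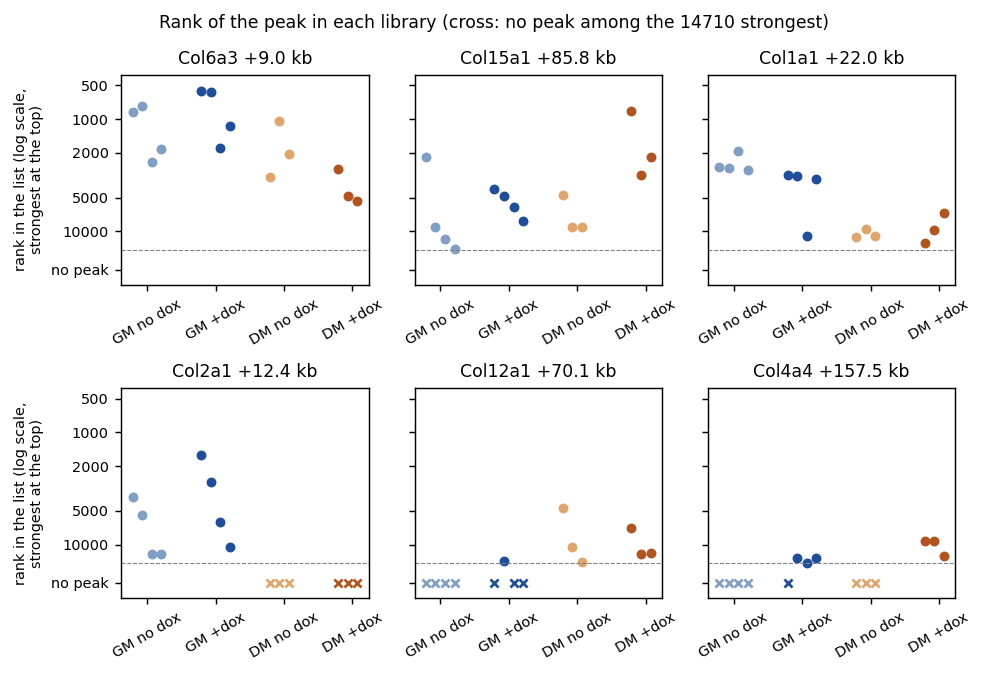
Rank (log scale, strongest at the top) of 6 collagen regions in each library by group, with crosses for no peak in the equal list. Col1a1 +22.0 kb ranked 1915 to 2818 in GM no dox and 9585 to 11327 in DM no dox, and Col2a1 +12.4 kb had peaks in all 8 GM libraries and in no DM library.

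Differentiation with dox used other libraries than the comparison without dox. It gave 0 called collagen regions, against 0.183% of all regions, 9 of 91 with an unadjusted p under 0.05 (9.89%, against 11.6%) and a median difference of −0.12, against 0.01 over all. Col15a1 +85.8 kb ranked 4239, 4882, 6100 and 8048 in GM +dox and 850, 3165 and 2154 in DM +dox, without overlap (1.65, SE 0.61, adjusted p = 0.287). In this comparison libraries with the same replicate number varied together, and with the number as a replicate block the difference was 2.02 (SE 0.45, adjusted p = 0.0377), past the threshold. That fit called 1 of 91 collagen regions (1.10%, against 1.19% of all regions). Col6a3 +9.0 kb ranked 565, 570, 1815 and 1156 in GM +dox and 2763, 4823 and 5317 in DM +dox, a difference of −2.19 (SE 0.64, adjusted p = 0.157). Without dox it ranked 862, 758, 2427 and 1851 in GM and 3279, 1046 and 2066 in DM, which overlapped.

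All-or-none regions were 0 higher of 111 (0%, against 1.11%) and 2 lower (1.80%, against 1.10%). Col2a1 +12.4 kb was again one of them, with ranks of 1580, 2792, 6264 and 10509 in GM +dox and no peak in DM +dox (−1.83, SE 0.55, adjusted p = 0.174). On full lists, where the DM peaks were present but weak, the difference was −2.45 (SE 0.58, adjusted p = 0.0333), past the threshold. Col8a2 +14.3 kb, at an internal start of a network-forming chain, ranked 7144, 10931, 11746 and 8265 in GM +dox and had no peak in DM +dox, but it was also missing in 2 of 4 GM no dox lists. In the full lists of the dox arm, 2 of 386 regions were all-or-none toward DM (0.518%, against 1.49%), Col10a1 −7.5 kb and Col12a1 +84.5 kb, and 2 toward GM (0.518%, against 0.319%), Col4a2 +14.7 kb and Col4a6 +48.7 kb. All of these but the Col10a1 region also had peaks in 2 of 4 GM no dox lists. The fit on full lists called 4 of 271 collagen regions (1.48%, against 1.75% of all regions), which is near the background. Besides Col2a1 +12.4 kb these were Col10a1 −7.5 kb (0.88, SE 0.18, adjusted p = 0.0133), Col27a1 +34.2 kb (−0.77, SE 0.19, adjusted p = 0.0366) and Col28a1 +20.3 kb (−2.26, SE 0.58, adjusted p = 0.0460). Col10a1 encodes a chain of hypertrophic cartilage. Its region, which was called from the same DM +dox lists in the dox comparison in DM, had peaks in 3 of 3 DM +dox full lists and in no other list.

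**Figure D5:**
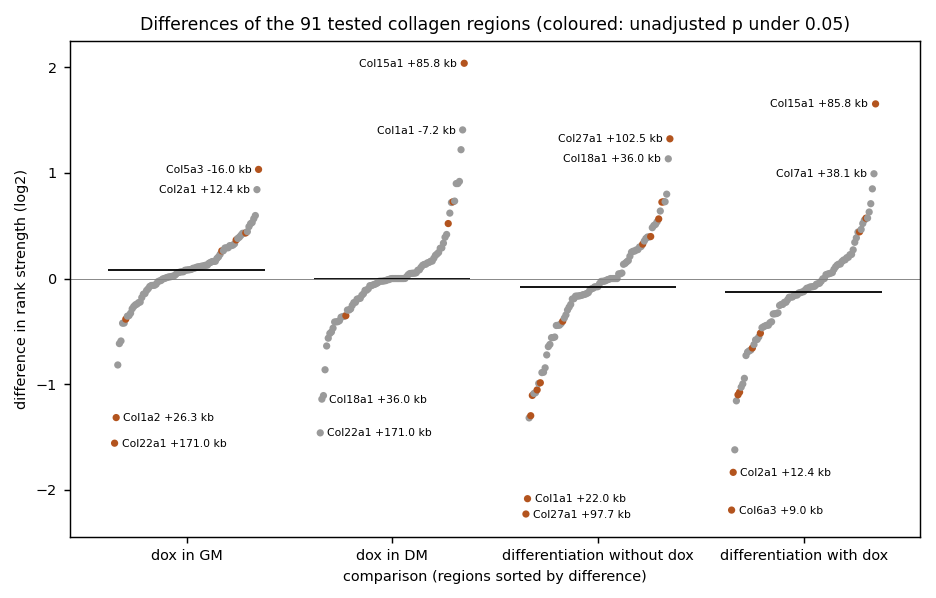
Differences in rank strength (log2) of the 91 tested collagen regions in the 4 comparisons, sorted within each (points; coloured where the unadjusted p was under 0.05; line, median), with the 2 lowest and 2 highest named. The spread ran from −2.23 for Col27a1 +97.7 kb without dox to 2.04 for Col15a1 +85.8 kb with dox in DM.

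At the level of genes, the number of peaks per gene, as log2(peaks + 1), was fitted over 13598 protein-coding genes, 33 of them collagen genes. None was called in any comparison, against 0.0441% of all genes with dox in GM, 0.257% with dox in DM, 0.287% with differentiation without dox and 0.772% with dox. Unadjusted p was under 0.05 for 3 (9.09%, against 4.65%), 5 (15.2%, against 4.87%), 7 (21.2%, against 7.7%) and 4 (12.1%, against 7.63%) of the 33. Collagen windows are longer than those of all genes (median 154 kb against 57.4 kb). These shares thus have no background matched for window length, and their difference was not tested. Single libraries decided whether some collagen genes were called. Without DM no dox replicate 4, Col1a1 (0.52, adjusted p = 0.0157) passed with dox in DM and Col6a2 (−1.54, adjusted p = 0.0298) with differentiation without dox. Of all 13480 genes tested without that library, 71 and 63 passed in these comparisons. Without GM +dox replicate 1, Col4a4 had a peak in every remaining +dox list and in no list without dox, and passed in both dox comparisons, a fit with no spread within groups for this gene. Of all 13532 genes in that fit, 14 passed with dox in GM and 41 with dox in DM. Counted over the gene body alone, Col2a1 passed in both differentiation comparisons (1 of 26 collagen genes, against 0.225% of all genes without dox and 0.342% with dox). The difference was −1.15 (SE 0.12, adjusted p = 0.00106) without dox and −1 (SE 0.12, adjusted p = 0.00230) with dox. Its intronic +12.4 kb region had a peak in every GM equal list and in no DM one, so these counts hardly varied within groups. In full lists that region had a peak in all 14. With the 20 kb flanks Col2a1 did not pass, at −0.876 without dox (adjusted p = 0.2292) and −0.585 with dox (adjusted p = 0.6005).

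Genes that act on collagen were examined in the same way. Of the 44 tested regions of 20 genes of collagen modification and folding, 1 was called in 1 comparison, differentiation without dox (0.376% of all regions were called there), at Plod2, the lysyl hydroxylase that prepares telopeptides for cross-linking. The region lay 79.8 kb from the 5′ end of this 66.2 kb gene (chr9:92621416-92622182), had no peak in 4 GM no dox lists and ranked 9785, 10640 and 6458 in DM no dox (0.75, SE 0.15, adjusted p = 0.0310). It had no peak in DM +dox (dox in DM, −0.75, SE 0.16, adjusted p = 0.0753). The call did not hold when peaks were ranked by fold enrichment (adjusted p = 0.389), with all 16 libraries (0.175), or without GM no dox replicate 1, 2 or 3, GM +dox replicate 3 or DM +dox replicate 3 (0.0551 to 0.110). At Serpinh1, the collagen chaperone, a region −7.1 kb from the 5′ end ranked 808, 919, 774 and 1100 in GM no dox and 5262, 2263 and 2193 in DM no dox (−1.73, SE 0.59, adjusted p = 0.214). The groups did not overlap.

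None of the 38 regions of 14 genes of propeptide cleavage and cross-linking, 22 regions of 11 collagen receptor genes or 22 regions of 11 collagen degradation genes was called in any comparison. At Lox, the cross-linking oxidase, a region at the start ranked 5839, 4919, 2351 and 6511 in GM no dox and 7947, 13593 and 11354 in DM no dox (−1.23, SE 0.42, adjusted p = 0.225). At Timp2, an inhibitor of collagen-degrading proteases, a region ranked 6460, 12648 and 11876 in GM +dox, with no peak in 1 list, and 1797, 3251 and 4064 in DM +dox (1.93, SE 0.43, adjusted p = 0.0592). Another Timp2 region, −7.6 kb from the 5′ end, went the other way without dox, with ranks of 1816, 2935, 2101 and 3877 in GM no dox and 11971 and 5950 in DM no dox, where 1 list had no peak (−1.98, SE 0.63, adjusted p = 0.192). At Mmp2, the gelatinase, a region ranked 10385, 13082, 11811 and 7107 in GM +dox and 3284, 4925 and 3230 in DM +dox (1.47, SE 0.39, adjusted p = 0.114). In each region named in this paragraph the groups did not overlap, and none passed the threshold. All were picked for a low p, and how often groups separate over all regions was not counted.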

How the data were processed

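Per the labels and the study's methods, the authors ran nf-core/atacseq 2.1.2 (mm10, blacklist mm10-blacklist.v2), and MACS2 (version not given in the sources used here) called narrow peaks in each library. The deposited lists give a score, a fold enrichment (a ratio), −log10 p and −log10 q per peak, with q under 0.05. They hold no counts, so depth was estimated from fold and p, which MACS2 derives from the pileup and its background. Scores were not used. Here, lists cut to the length of the shortest were merged at 1 bp of overlap, ranked by −log10 p and fitted with limma 3.58.1 (trend, 4 group means, R 4.3.3), with Benjamini-Hochberg adjustment over all regions or genes tested, after a test on simulated data. Gene counts used a pseudocount of 1. No 2 of the 16 lists were identical (120 pairs).

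The members and lists were chosen with earlier results of these data known. Named regions were those past the threshold, all-or-none regions, start regions of 15 collagen genes, the gene with most peaks per class and the 2 lowest p per gene list. Regions with an unadjusted p under 0.05, Col1a2 +0.5 kb and the full-list calls were named after their values were seen. Deviations of same-numbered libraries from their group means were correlated in dox in GM (0.22 to 0.54), dox in DM (0.15 to 0.54) and differentiation with dox (0.29 to 0.61), so the numbers were taken as pairs there, and not in differentiation without dox (0.08 to 0.44). Even so, counts of called regions and genes come from the fit without a block unless another setting is named. The block fit spans all 14 libraries, so it was accepted for some comparisons and set aside for another. The cutoff for taking pairs fell between the lowest values, 0.15 and 0.08, which lie close together, so this choice is not firm. Whether the block call of Col1a1 +22.0 kb counts rests on it. 1 collagen region is not reported here.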

Additional observations from a re-analysis of the deposited data

Results flagged for a closer look

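In 38 groups of 4 GM libraries checked (the rank strength of named regions, and the collagen peaks per library), 3 held 1 library far from the others, and chance gives about 1 in 20. Rank strength of Col1a1 +22.0 kb was 2.94 in GM no dox replicate 3, against 2.38 to 2.46 in the other libraries of the group. The same region was at 0.42 in GM +dox replicate 3, against 2.11 to 2.21. Rank strength of Col27a1 +102.5 kb was 0.89 in GM +dox replicate 2, against 0.14 to 0.20.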

How the results depend on the processing

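Full lists gave 4 all-or-none collagen regions with dox in GM, 12 with dox in DM and 4 for differentiation with dox, and the counts at q of at most 0.01 were also 4, 12 and 4. Over all regions the full lists gave 0.446%, 5.39% and 1.81%, against 1.12%, 3.82% and 1.04% of collagen regions. Called regions were then 1, 1 and 4 for dox in DM, differentiation without dox and differentiation with dox under both settings (0.672%, 0.769% and 1.75% of all regions in full lists), and called genes 1 for dox in DM and 1 for differentiation with dox (Col10a1, a fit with no spread within groups). Of all 16890 genes tested on full lists, 33 were called for dox in DM and 31 for differentiation with dox. Collagen peaks per library then differed by 85.5 and 88.25 with dox in GM, 98.333 and 97.333 with dox in DM, and −16.25 and −13.667 for differentiation without dox. Counted over the gene body plus 5 kb or alone, 1 gene was called in each differentiation comparison (of all 10240 genes tested over the body alone, 23 without and 35 with dox). This gene was Col2a1, with little spread within groups. Shorter equal lists gave 1, 2 and 1 all-or-none regions for dox in DM and differentiation without and with dox (2.27%, 3.57% and 1.85%, against 1.52%, 1.88% and 1.81% of all), and −2.333 peaks per library for dox in DM. Ranking by fold enrichment gave 1 all-or-none region (1.03%, against 2.02%) and a difference of 0 peaks for dox in DM, and 4 regions (3.64%, against 2.00%) for differentiation with dox. All 16 libraries gave 1 all-or-none region (0.885%, against 0.368%) and 19.5 peaks for dox in DM, with −18.75 peaks on differentiation in the arm without dox. Within replicate numbers 1 and 2, a split chosen after seeing the data, the difference was 13 peaks for dox in DM; without dox, differentiation gave −10.5 there and 0.5 within numbers 3 and 4. The cause of these shifts was not tested.

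The replicate block called 1 region for differentiation with dox (Col15a1 +85.8 kb). It also called 1 for differentiation without dox, Col1a1 +22.0 kb (−2.02, adjusted p = 0.0401), where the numbers were not taken as pairs. A term for numbers 1 and 2 against 3 and 4 also called 1 region. Of all 19695 regions the block called 239 in this comparison and the term 203. The block changed no other collagen call. Over 23 alternatives the adjusted p of Col1a1 +22.0 kb ran from 0.0355 to 0.526, that of Col15a1 +85.8 kb with dox from 0.0377 to 0.580, of Col28a1 +20.3 kb without dox from 0.0116 to 0.702 and of Col2a1 +12.4 kb with dox from 0.0329 to 0.512. Over 22 alternatives it ran from 0.0490 to 0.597 for Col4a4 +157.5 kb with dox in DM and from 0.0371 to 0.620 for Col3a1 +44.6 kb, with no change of direction for these 6. Col5a3 +20.7 kb changed direction in full lists, to 0.0785 and at q of at most 0.01 to 0.0765 for dox in DM (−0.35 in equal lists), and to −0.0273 and −0.0252 for differentiation without dox (0.33).

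With 1 library left out, called regions ran from 0 to 1 in the dox comparison in DM and in differentiation without dox, and called genes from 0 to 1 in these and with dox in GM. Over all regions, these fits called 6 to 46 with dox in DM and 16 to 150 for differentiation without dox. Over all genes they called 32 to 71 and 39 to 82 in these comparisons, and 6 to 24 with dox in GM. All-or-none regions ran from 0 to 2, 3 to 8, 4 to 7 and 2 to 6 for dox in GM, dox in DM and differentiation without and with dox. Their shares were 0 to 1.80%, 3.12 to 8.33%, 3.57 to 6.42% and 1.82 to 5.66%, against 0.495 to 0.823%, 2.62 to 4.21%, 2.44 to 4.58% and 2.86 to 5.2% of all regions. In the same order, differences in peaks per library ran from 3.667 to 9, 2 to 8.5, −7 to −3 and −9.75 to −3. Peak lists without counts limit all of this to rank and presence: a region under the deposited threshold is not shown to be closed.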
